A study of Mus musculus with 16 samples.

Results

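The genes that encode the proteins of the mitochondrial ribosome were followed here through 16 lists of open chromatin from mouse CD8+ T cells. They were taken as the protein-coding genes of GENCODE M21 whose symbol begins with Mrpl or Mrps and a number. The rule found 78 of the 21938 protein-coding genes, 49 named for the large subunit (Mrpl) and 29 for the small subunit (Mrps). The mitochondrial ribosome makes the few proteins that the mitochondrial genome encodes, which are core subunits of the respiratory chain and of ATP synthase. All of its proteins are encoded in the nucleus, made in the cytosol and imported, so that the nuclear promoters of these genes set the supply of the machine. Part of the set has counterparts in bacterial ribosomes, and part was added to the ribosome during the evolution of mitochondria. Mitochondrial translation is known to rise when T cells are activated, and TM cells are known for their reliance on mitochondrial respiration.

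ATAC-seq, which cuts and tags accessible DNA with a transposase, had been run on effector cells (TE) and memory cells (TM) from wild-type (WT, labelled TPdh+/+) and TPdh-/- mice, with 4 libraries in each of the TE groups (WT TE and TPdh-/- TE) and of the TM groups (WT TM and TPdh-/- TM). Per the study's methods, TPdh-/- mice carried floxed Pdha1 (B6.129P2-Pdha1tm1ptl/J), which encodes a subunit of pyruvate dehydrogenase, and Cre under the Cd4 promoter (B6.Cg-Tg(Cd4-cre)1Cwi/BfluJ), which acts in every T cell that has passed through the CD4+ CD8+ stage and not in CD8+ cells alone. Mice of both sexes were 8 to 12 weeks old, and OT-I cells spent 3 days with OVA peptide and then 4 days with 10 ng/mL of IL-2 (TE) or IL-15 (TM), although a legend of the study calls the cells splenic T cells. The comparison asked how the loss of pyruvate dehydrogenase bears on chromatin in each cell state.

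A gene was counted as open in a library when the summit of a peak lay within 1000 bp of the start of any of its annotated transcripts. Such a peak is called a start peak, and where a gene had several, the one with the highest −log10 q-value was used. The lists held 2290 to 86637 peaks. The background coverage, the number of fragments over an average base of the genome, was 0.636 to 1.55 in the WT TE libraries, 0.173 to 0.445 in TPdh-/- TE, 0.354 to 0.572 in WT TM and 0.186 to 0.261 in TPdh-/- TM. The libraries of the 2 genotypes did not overlap in this measure in either cell type, so that genotype and coverage cannot be told apart. WT TE and WT TM did not overlap either, so that cell type and coverage cannot be told apart among the WT libraries. Read totals were not analysed here. Nothing in the labels says whether the replicates of a group came from separate mice, and p-values then measure the spread between these libraries, which may be technical. The lists were sparse at genes that define T cells. Start peaks were found at Cd8b1 in 8 of 16 libraries, at Cd3d and Lck in 6, at Ptprc in 4, at Cd3g in 3, at Cd3e and Cd8a in 2 and at Cd2 in 0. Markers of other cells were not free of them. Csf1r (myeloid) and Eomes (NK) had one in 4 libraries, Zbtb7b (CD4 T cell) in 3, Ms4a1 (B cell) in 2, and Cd79b and Pax5 (B cell) and Itgam (myeloid) in 1, while Cd4, Cd79a, Lyz2, Adgre1, Cd68, Ncr1 and Klrb1c had none. A gene without a start peak was therefore not shown to be closed.

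Sequences of the promoters are given first for the genes on which the results below turn. Each runs from 150 bases before to 30 bases into the gene from its RefSeq start on GRCm38, is written 5′ to 3′ on the strand of the gene, and has exact matches to 5 motifs in capitals. The motifs were those of NRF1 (CGCATGCGC), an ETS factor (CCGGAAGT), YY1 (AAGATGGCG), the cyclic AMP response element, CRE (TGACGTCA), and the TATA box (TATAAA), searched on both strands. Mrps9 (chr1:42851083-42851262, plus strand) is shown because its start was held by every TPdh-/- TM library and by no WT TM library. Mrpl17 (chr7:105811058-105811237, minus strand) and Mrpl32 (chr13:14613008-14613187, minus strand) reached the highest fold enrichments and hold NRF1 matches, as does Mrpl39 (chr16:84735215-84735394, minus strand).
Mrps9: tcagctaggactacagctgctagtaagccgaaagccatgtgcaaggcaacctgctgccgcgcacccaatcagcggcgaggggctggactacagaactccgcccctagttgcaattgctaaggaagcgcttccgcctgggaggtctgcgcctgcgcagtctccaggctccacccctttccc
Mrpl17: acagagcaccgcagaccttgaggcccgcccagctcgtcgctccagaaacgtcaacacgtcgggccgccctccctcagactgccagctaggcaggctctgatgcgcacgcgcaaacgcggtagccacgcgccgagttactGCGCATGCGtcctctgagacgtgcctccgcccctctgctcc
Mrpl32: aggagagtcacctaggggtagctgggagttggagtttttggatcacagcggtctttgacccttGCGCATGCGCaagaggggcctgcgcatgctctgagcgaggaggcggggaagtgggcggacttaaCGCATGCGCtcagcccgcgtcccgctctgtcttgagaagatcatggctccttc
Mrpl39: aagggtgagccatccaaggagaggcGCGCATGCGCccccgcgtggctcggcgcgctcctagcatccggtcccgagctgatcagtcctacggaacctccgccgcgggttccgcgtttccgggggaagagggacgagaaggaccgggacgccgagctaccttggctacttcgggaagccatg
Mrpl51 (chr6:125192050-125192229, plus strand) is shown for its ETS match and Mrpl36 (chr13:73330859-73331038, plus strand) for its YY1 match.
Mrpl51: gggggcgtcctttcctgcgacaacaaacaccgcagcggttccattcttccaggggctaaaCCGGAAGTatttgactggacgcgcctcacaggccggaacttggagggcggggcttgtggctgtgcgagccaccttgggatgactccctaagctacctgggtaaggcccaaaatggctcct
Mrpl36: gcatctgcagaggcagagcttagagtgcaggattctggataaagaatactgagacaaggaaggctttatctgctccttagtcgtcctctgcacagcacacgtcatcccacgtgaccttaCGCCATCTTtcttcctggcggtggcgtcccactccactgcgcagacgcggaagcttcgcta
Mrps2 (chr2:28467916-28468095, plus strand), Mrpl21 (chr19:3282892-3283071, plus strand) and Mrpl16 (chr19:11770265-11770444, plus strand) are shown because they had a start peak in no library. In Mrpl16 the capitals mark a TATA box and a CRE.
Mrps2: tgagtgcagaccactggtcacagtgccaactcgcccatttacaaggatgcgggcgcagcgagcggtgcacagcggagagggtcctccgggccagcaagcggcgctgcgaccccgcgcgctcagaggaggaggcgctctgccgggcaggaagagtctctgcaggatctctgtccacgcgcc
Mrpl21: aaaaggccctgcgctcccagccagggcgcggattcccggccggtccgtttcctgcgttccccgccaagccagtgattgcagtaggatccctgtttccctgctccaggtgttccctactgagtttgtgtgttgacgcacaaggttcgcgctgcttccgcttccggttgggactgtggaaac
Mrpl16: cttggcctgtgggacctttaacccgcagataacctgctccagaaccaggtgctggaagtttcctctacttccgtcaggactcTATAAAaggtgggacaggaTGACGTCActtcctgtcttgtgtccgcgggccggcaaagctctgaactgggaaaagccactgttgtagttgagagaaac

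Start peaks were more frequent at the mitochondrial ribosomal protein genes than at protein-coding genes as a whole. Of the 1248 combinations of a gene and a library, 374 (29.97%) had a start peak, against 20.3% for all protein-coding genes. Only 3 of the 78 genes (3.85%) had none in any library, against 26.5% of protein-coding genes. The median gene was held in 4 of 16 libraries, against 2. In 17 genes (21.8%) the start was held in 8 or more libraries, against 14.2%. Another 31 genes were held in 4 to 7 libraries and 27 in 1 to 3. No gene of the set was held in all 16, the most being 12.

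Promoters rich in CpG dinucleotides accounted for most of the set. A RefSeq promoter of 300 bases (250 before to 50 after the start, GRCm38) was matched to 69 of the 78 genes and to 16521 protein-coding genes. The genes without an entry were Mrpl4, Mrpl13, Mrpl15, Mrpl19, Mrpl38, Mrpl54, Mrps28, Mrps34 and Mrps35. The ratio of observed to expected CpG had a median of 0.818 in the matched genes against 0.602 in all matched promoters, and 64 (92.8%) reached 0.6 against 50.2%. Beside the 8288 promoters that reached this ratio, a comparison chosen after seeing the data, the set did not stand out in how often it was held. The CpG-rich promoters were held in a median of 5 libraries, 7.70% of them in none and 25.7% in 8 or more.

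The share of the set with a start peak varied widely between libraries of the same group. In WT TE it was 41.0, 44.9, 12.8 and 30.8% in replicates 1 to 4, a mean of 32.4% ± 14.3 (SD, n = 4). In TPdh-/- TE it was 19.2, 6.41, 43.6 and 41.0%, a mean of 27.6% ± 17.8 (SD, n = 4). WT TE replicate 3 and TPdh-/- TE replicates 1 and 2 were low, the other TE libraries were high, and the groups overlapped. WT TM gave 37.2, 10.3, 2.56 and 28.2%, a mean of 19.6% ± 15.9 (SD, n = 4). TPdh-/- TM gave 30.8, 37.2, 46.2 and 47.4%, a mean of 40.4% ± 7.87 (SD, n = 4). All TPdh-/- TM libraries were thus high, but the highest WT TM library lay within their range. All protein-coding genes also had their lowest mean in WT TM (15.3%) and their highest in TPdh-/- TM (28.3%), while the TE groups were level over all genes, with 18.7% in WT TE and 18.8% in TPdh-/- TE.

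**Figure D1:**
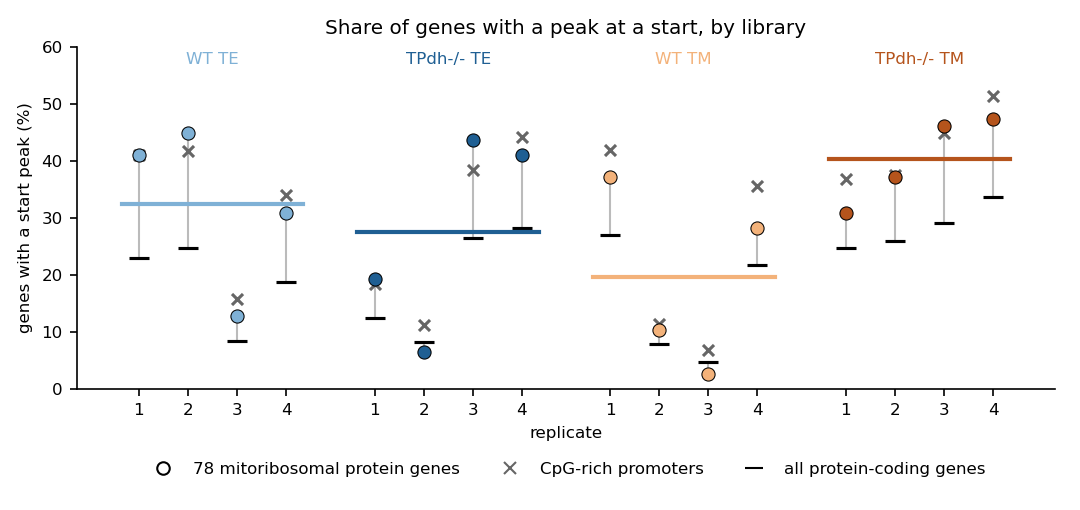
Share of genes with a start peak (vertical axis, %) in each of the 16 libraries (horizontal axis, replicates 1 to 4 of the 4 groups), for the 78 mitochondrial ribosomal protein genes (filled circles), CpG-rich promoters (crosses) and all protein-coding genes (black dashes), with the mean of the circles in each group as a coloured line. The circles lie above the dashes in 14 of 16 libraries and close to the crosses in each, from 2.56% in WT TM replicate 3 to 47.4% in TPdh-/- TM replicate 4.

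Set against CpG-rich promoters library by library, the set differed by a mean of -0.78 percentage points in WT TE, -0.45 in TPdh-/- TE, -4.31 in WT TM and -2.31 in TPdh-/- TM, with no library further away than -7.29 points. In WT TM all 4 libraries lay below the CpG-rich promoters, the nearest at -1.05 points. In TPdh-/- TM, TPdh-/- TE and WT TE the differences took both signs.

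The peaks themselves were low. Fold enrichment, which divides the fragments at a summit plus 1 by the local background plus 1, ran from 3.02 to 10.1 at the starts of the set with a median of 4.91, the same value as at all protein-coding starts (4.91), whose highest was 51.1. The −log10 q-value had a median of 3.63 against 3.65 and reached 13.1. Summits rested on 3 to 22 fragments, with a median of 6.5. In WT TE, where the background was highest, the lowest start peak of the set held 5 to 11 fragments depending on the library, and in TPdh-/- TM it held 3 in each. With so few fragments, absence of a start peak in a library cannot be told from a peak just under the authors' threshold.

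Summits gathered at the starts. Of the 374 start peaks 261 (69.8%) had their summit within 200 bp of a transcript start, with a median position of -15.5 bp, just upstream. Between libraries the peaks fell in the same place in most cases: of 1050 pairs of start peaks of 1 gene in 2 libraries, 744 (70.9%) overlapped. At Mrpl32 and Mrps14, whose peaks were among the tallest, 36 of 36 pairs overlapped. At Mrpl48 only 27 of 55 did, so that the count for this gene joins peaks at more than 1 position.

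**Figure D2:**
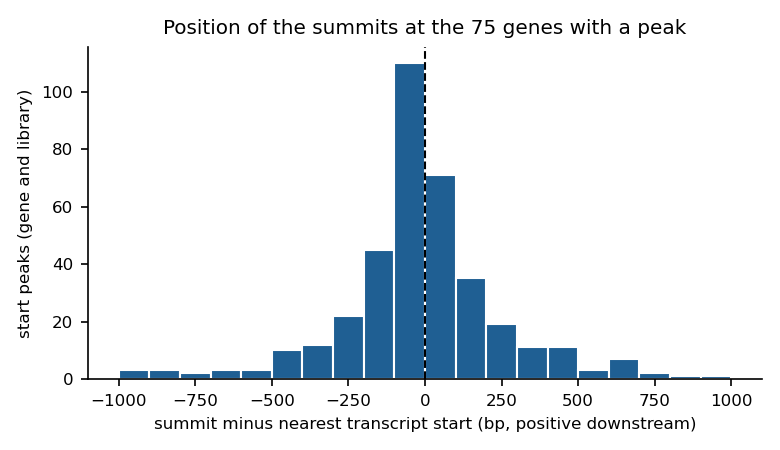
Distance from the summit of each start peak to the nearest transcript start (horizontal axis, bp, in bins of 100 bp, positive downstream) and the number of start peaks (vertical axis, each a gene in a library) at the 75 genes of the set with any. The tallest bin, with 110 start peaks, is the 100 bp upstream of the start, and the next, with 71, the 100 bp downstream.

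Divergent promoters were common in the set. In 33 of the 78 genes (42.3%) another protein-coding gene started within 1000 bp on the opposite strand, against 12.3% of protein-coding genes. The partners included Ndufb5 and Ndufs6, subunits of complex I, at Mrpl47 and Mrpl36. Twnk, the mitochondrial DNA helicase, started beside Mrpl43, and Sars2, the mitochondrial seryl-tRNA synthetase, beside Mrps12. Mrpl46 and Mrps11 start beside each other on opposite strands, so that the same peaks counted for both. These peaks had a fold enrichment of 5.50 in WT TE replicate 2, 5.17 in WT TM replicate 1, and 3.78 and 4.13 in TPdh-/- TM replicates 2 and 4. At such starts a peak cannot be assigned to 1 of the 2 genes.

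Mrpl47, Mrps12 and Mrpl48 were held in the most libraries. Mrpl47, a large subunit protein whose gene starts beside Ndufb5, was held in 12 libraries, 3 WT and 3 TPdh-/- libraries of TE and 2 WT and 4 TPdh-/- libraries of TM, with fold enrichments of 4.47 to 7.24. Mrps12, of the decoding region of the small subunit, was also held in 12, by 4, 2, 2 and 4 libraries in the same order, with 3.16 to 7.32. Mrpl48 followed with 11 (4, 3, 2 and 2), and it reached 7.95. Both Mrps12 and Mrpl48 were held by every WT TE library, as was Mrps16 (4, 1, 1 and 2). No other gene of the set was.

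Mrpl17 and Mrpl18, of the large subunit, were each held in 10 libraries in the same pattern of 2, 2, 2 and 4. Mrpl17 had fold enrichments of 7.09 and 10.02 in WT TE replicates 1 and 2, 4.44 and 6.90 in TPdh-/- TE replicates 3 and 4, and 6.64 and 6.17 in WT TM replicates 1 and 4. In TPdh-/- TM it had 3.87, 3.89, 9.24 and 5.78. Its values thus spread more within TPdh-/- TM than between the groups. Mrpl18, which starts beside the chaperonin gene Tcp1, ranged from 3.17 to 7.87.

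Mrpl32, whose protein is cleaved by the m-AAA protease before the ribosome is assembled, carried the highest single value of the set. Its fold enrichment was 7.78 and 6.72 in WT TE replicates 1 and 2, 4.15 in TPdh-/- TE replicate 4, 5.73 and 10.1 in WT TM replicates 3 and 4, and 5.74, 4.65, 5.69 and 8.54 in TPdh-/- TM. Psma2, of the proteasome, starts beside it. Mrps14 (2, 2, 1 and 4) reached 9.75 in both WT TE replicate 2 and WT TM replicate 1, and lay between 5.55 and 8.0 in TPdh-/- TM. Mrps28, by contrast, (3, 2, 1 and 3) was held by most WT TE libraries and ranged from 3.18 to 9.18. Mrpl51 and Mrpl57 were held in 6 libraries each and stood out for TPdh-/- TE replicate 3, where they had 9.77 and 9.53. Elsewhere Mrpl51 had 5.08 and 6.55 in WT TE replicates 1 and 4, 5.90 and 4.65 in WT TM replicates 1 and 4, and 9.16 in TPdh-/- TM replicate 4. Mrpl57 stayed at 3.97 to 4.37 in its other 5 libraries.

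**Figure D3:**
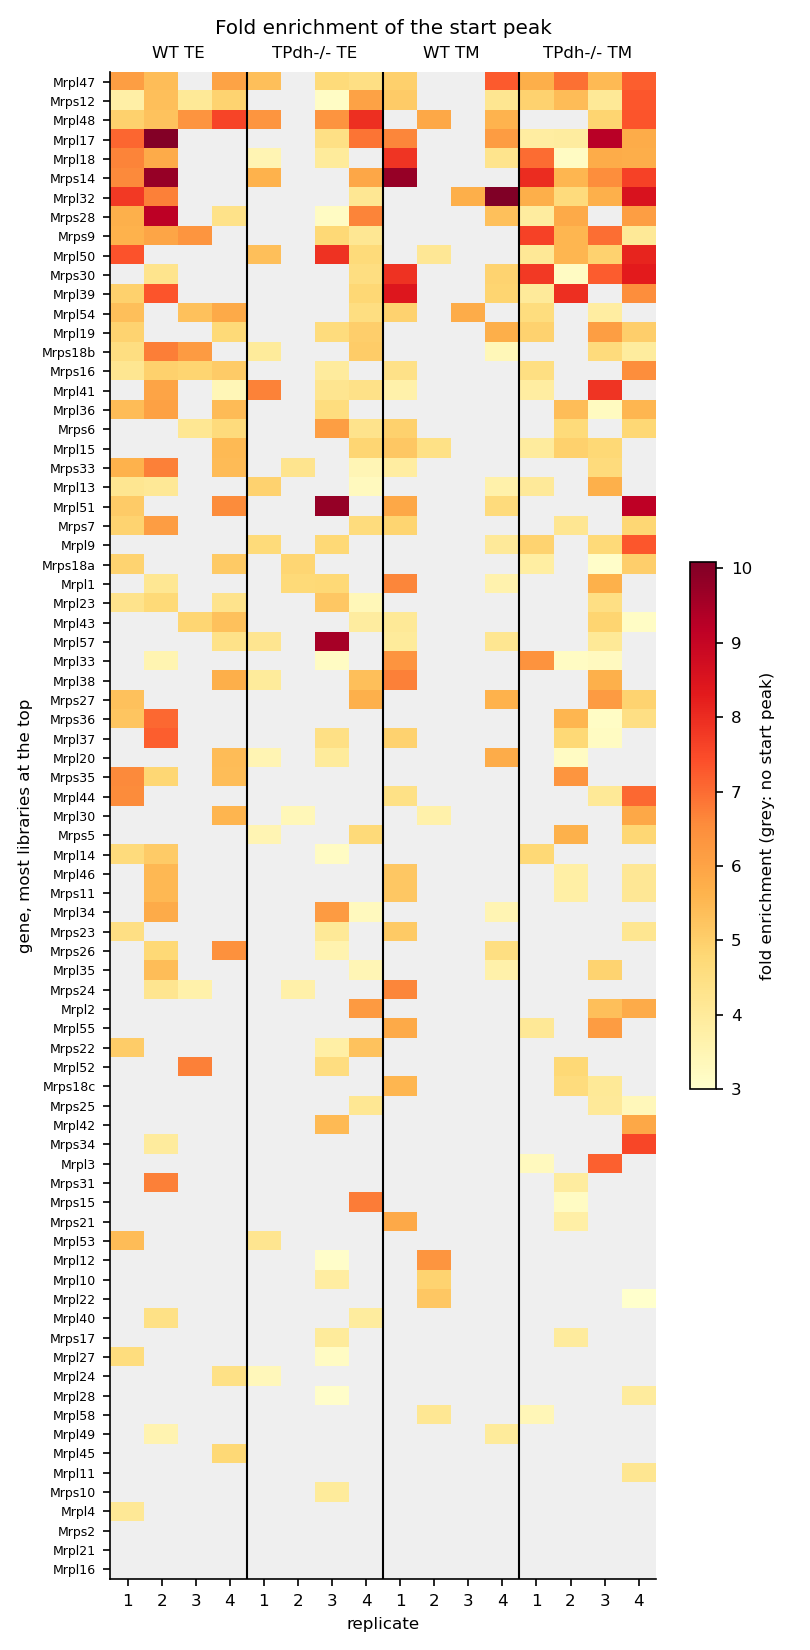
Fold enrichment of the start peak (colour) at each of the 78 genes (rows, those held in the most libraries at the top) in each library (columns, replicates 1 to 4 of the 4 groups); grey marks a gene without a start peak. Colours run from 3 to 10.1, and the 3 rows at the bottom, Mrps2, Mrpl21 and Mrpl16, are grey throughout.

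More genes of the set had a start peak in TPdh-/- TM than in WT TM, and no single gene passed the test after adjustment. In this comparison 47 genes of the set (60.3%) were held by more TPdh-/- TM than WT TM libraries and 9 (11.5%) by fewer, beside 42.8% and 10.9% of all protein-coding genes and 56.2% and 12.6% of CpG-rich promoters. Mrps9 was the only gene of the set held by all 4 libraries of a group and none of the other, with 122 protein-coding genes (0.556%) in that direction and 123 (0.561%) in either. Mrps9 encodes a small subunit protein with a bacterial counterpart. Its fold enrichment was 7.63, 5.55, 6.98 and 4.07 in TPdh-/- TM, on 9, 6, 8 and 4 fragments. It had no start peak in WT TM, while WT TE replicates 1 to 3 had 5.64, 5.96 and 6.33 and TPdh-/- TE replicates 3 and 4 had 4.77 and 4.15. Fisher's exact test, two-sided, gave p = 0.0286 for Mrps9, the smallest p that 4 against 4 libraries allow, and 1 after Benjamini-Hochberg adjustment over all 21938 genes. No gene of the set passed after adjustment, and 1 did so before. With 123 of the 21938 genes at the smallest possible p, no gene could pass after adjustment. In the part of each list that holds its 2290 best peaks, Mrps9 was held by 1 more TPdh-/- TM than WT TM library (Fisher's exact p = 1) and no gene of the set separated the groups, beside 0.0182% of protein-coding genes.

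The mean share of the set was 20.8 percentage points higher in TPdh-/- TM than in WT TM, and 15.2 points without WT TM replicate 3, where 2 genes were held. With equally long lists the difference was 0.32 points, and 5 genes (6.41%) were held by more TPdh-/- TM and 3 (3.85%) by more WT TM libraries, beside 6.48% and 3.48% of all protein-coding genes. TPdh-/- TM lists were also longer, with 60189 to 86637 peaks against 13304 to 54892 in WT TM, and the part of list length and coverage in the difference was not tested beyond this.

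Effector cells gave no gene of the set held by all libraries of 1 genotype and none of the other, beside 0.278% of protein-coding genes, and Fisher's exact test called none at an unadjusted p under 0.05. In TPdh-/- TE 19 genes were held by more libraries than in WT TE and 29 by fewer (24.4% and 37.2%), beside 24.5% and 20.6% of all protein-coding genes and 25.6% and 35.8% of CpG-rich promoters. The mean share was 4.81 points lower in TPdh-/- TE, less than the spread between replicates, and turned to 2.24 points higher without TPdh-/- TE replicate 2, which held 5 genes. With a 500 bp window the difference was -8.97 points, and with a −log10 q-value of at least 5 it was -8.01. Among the 2290 best peaks 26 genes (33.3%) were held by fewer TPdh-/- TE than WT TE libraries and 2 (2.56%) by more, beside 19.4% and 1.83% of all protein-coding genes. These lists held 8.97 to 15.4% of the set in WT TE and 0 to 3.85% in TPdh-/- TE without overlap. WT TE lay above WT TM (0 to 2.56%) and TPdh-/- TM (1.28 to 3.85%) in the same way. The WT TE lists were shorter, with 2290 to 19234 peaks against 32906 to 78635 in TPdh-/- TE, so that the 2290 best peaks were 11.9 to 100% of a WT TE list and 2.91 to 6.96% of a TPdh-/- TE list. The part of list length and coverage in this difference was not tested. On average they held 8.71% and 1.40% of all protein-coding genes, and 16.3% and 2.30% of CpG-rich promoters. No gene of the set separated the groups there, beside 0.533% of protein-coding genes.

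WT TM and WT TE were likewise not separated by any gene of the set, beside 0.278% of protein-coding genes, and none had an unadjusted p under 0.05 by Fisher's exact test. Here 12 genes were held by more WT TM and 34 by more WT TE libraries (15.4% and 43.6%), beside 18.5% and 23.2% of all protein-coding genes and 20.9% and 39.4% of CpG-rich promoters. Among the 2290 best peaks none was held by more WT TM libraries and 25 (32.1%) by fewer, beside 2.06% and 19.3% of all protein-coding genes. Those peaks were 11.9 to 100% of a WT TE list and 4.17 to 17.2% of a WT TM list. The part of list length and coverage in these counts was not tested. No gene of the set separated the groups there, beside 0.561% of protein-coding genes. This comparison shares its WT libraries with both comparisons of genotype. Mrps35 had fold enrichments of 6.57, 4.82 and 5.38 in WT TE replicates 1, 2 and 4, and outside that group a start peak in TPdh-/- TM replicate 2 alone, of 6.34. It was picked after its values were seen.

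No gene of the set separated TPdh-/- TM from TPdh-/- TE either, beside 0.415% of protein-coding genes, and none had an unadjusted p under 0.05 by Fisher's exact test. Of the set 39 genes were held by more TPdh-/- TM and 19 by more TPdh-/- TE libraries (50% and 24.4%), beside 38.5% and 16.1% of all protein-coding genes and 51.0% and 17.7% of CpG-rich promoters. In the equally long lists the counts were 5 and 3 (6.41% and 3.85%, beside 6.73% and 3.30% of all protein-coding genes), with none separated, beside 0.0273% of protein-coding genes.

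**Figure D4:**
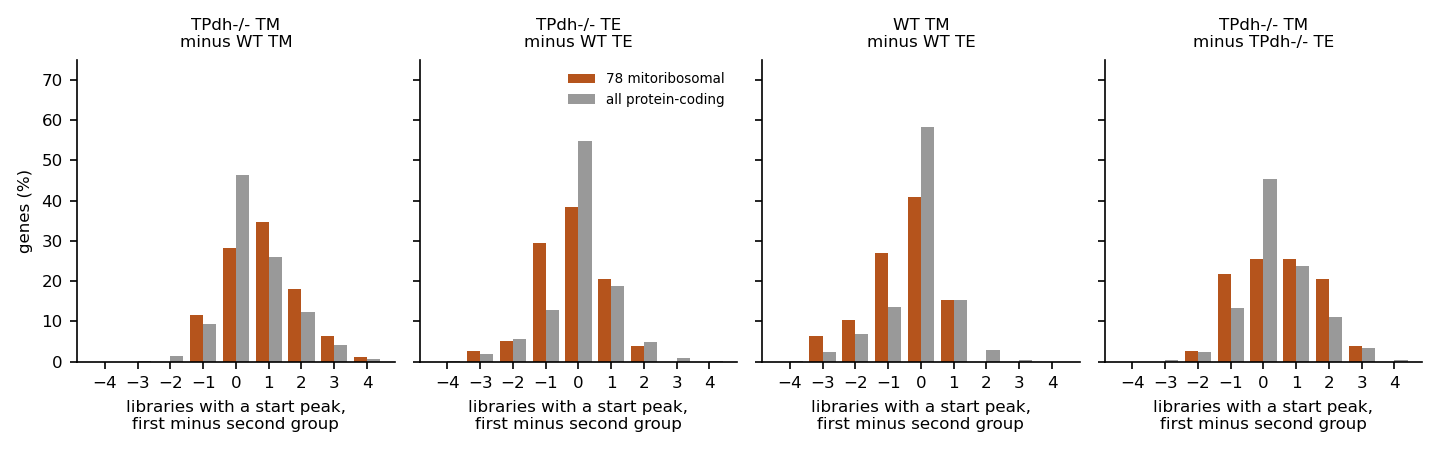
Number of libraries of the first group with a start peak minus that of the second (horizontal axis, from -4 to 4) and the share of genes at each difference (vertical axis, %) for the 78 mitochondrial ribosomal protein genes (orange) and all protein-coding genes (grey) in 4 comparisons. Mrps9, 1.28% of the set, is the only orange entry at 4 or -4.

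Taking both cell types together, genotype was tested by an exact permutation of the genotype labels within TE and within TM (4900 arrangements, two-sided). Mrpl50, a large subunit protein found only in mitochondria, was held by 3 TPdh-/- TE against 1 WT TE and by 4 TPdh-/- TM against 1 WT TM libraries. It gave p = 0.0469 in this exact test and 1 after adjustment, and was the 1 gene of the set with p under 0.05 and more TPdh-/- libraries, beside 0.738% of protein-coding genes. In the other direction the set had 0 genes, beside 0.0775%, and none passed after adjustment. Its p stayed under 0.05 in 3 of the 16 runs of the exact test that left out 1 library and rose above it in 13, and likewise with a 500 bp window, with a −log10 q-value of at least 5 and in equally long lists. The fold enrichment of Mrpl50 was 7.35 in WT TE replicate 1, 4.12 in WT TM replicate 2, 5.37, 7.89 and 4.67 in TPdh-/- TE replicates 1, 3 and 4, and 4.10, 5.55, 4.93 and 8.15 in TPdh-/- TM. The 2 WT values lie within the range of the TPdh-/- values. The zinc finger gene Zfp189 starts beside it on the other strand.

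Every TPdh-/- TM library held Mrpl47, Mrps12, Mrpl17, Mrpl18, Mrps14, Mrpl32, Mrps9, Mrpl50 and Mrps30. These 9 genes are 11.5% of the set, beside 6.12% of protein-coding genes and 10.97% of CpG-rich promoters. In WT TE 3 genes (3.85%) were held by all 4 libraries, beside 3.43% and 6.70%, and in TPdh-/- TE and WT TM none was, beside 0.684% and 0.479% of protein-coding genes. A test of the fold enrichment between groups could not be made for any gene of the set with all libraries, since none had a start peak in all 8 libraries of a comparison. Without TPdh-/- TE replicate 2 it could be made for 3 genes, by a two-sided exact permutation test whose smallest p is then 0.0571. Mrpl48 did not separate TPdh-/- TE from WT TE (exact p = 0.343, 0.914 after adjustment over 184 genes), beside 13% of the protein-coding genes tested. Mrpl50 overlapped between TPdh-/- TM and TPdh-/- TE (exact p = 0.857). Mrpl47 did not overlap between these groups, with a fold enrichment of 5.48 to 7.19 in TPdh-/- TM and 4.47 to 5.37 in the 3 TPdh-/- TE libraries left (exact p = 0.0571, 0.935 after adjustment over 319 genes), beside 5.33% of the genes tested.

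In the classes of mitoribosomal protein TPdh-/- TM had the highest mean share over all peaks, with 1 exception. The 30 large subunit proteins shared with bacteria had mean shares of 25.8% in WT TE, 28.3% in TPdh-/- TE, 20% in WT TM and 40% in TPdh-/- TM. The 21 large subunit proteins found only in mitochondria had 34.5, 28.6, 25 and 40.5%. The 16 small subunit proteins shared with bacteria had 35.9, 28.1, 17.2 and 46.9%. The exception were the 10 small subunit proteins found only in mitochondria, with 40, 25, 12.5 and 27.5%, and with SDs of 15 to 24.5 points over the 4 libraries of a group. The SDs of the classes before it, in the same order, were 10.9 to 19.9, 10.6 to 20.7 and 10.7 to 26.7 points. Mrps36, the remaining gene, encodes a subunit of the 2-oxoglutarate dehydrogenase complex in spite of its name. It was held by 2 WT TE and 3 TPdh-/- TM libraries and by none of the others. In equally long lists the order was another, and WT TE had the highest mean share in each of the 4 classes, with 6.67, 15.5, 14.1 and 15% in the order above against 0.833, 4.76, 3.13 and 0% in TPdh-/- TM, as over all protein-coding genes (8.71% against 2.52%).

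Genes that serve the mitochondrial ribosome gave like shares. The list of 62 other mitochondrial translation genes, which holds translation factors, tRNA synthetases, assembly factors and ribosomal proteins under other names, had means of 33.5% in WT TE, 28.6% in TPdh-/- TE, 23.8% in WT TM and 41.1% in TPdh-/- TM. Rmnd1, which holds the mitochondrial ribosome at the inner membrane near sites of messenger RNA processing, was the 1 gene of the 62 that separated 2 groups. It was held by 4 TPdh-/- TM and no WT TM libraries, as were 0.556% of protein-coding genes (Fisher's exact p = 0.0286, 1 after adjustment). The 84 genes of the cytosolic ribosome had 34.5, 25.3, 21.1 and 43.8%. In equally long lists both turned, with 15.7% in WT TE against 6.85% in TPdh-/- TM for the 62 genes and 17.6% against 2.68% for the 84.

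Motifs known from promoters of nuclear genes for mitochondrial proteins were found in a minority of the set. NRF1, a factor of many genes for respiration and mitochondrial protein synthesis, had an exact match in 7 of the 69 matched promoters (10.1%), against 2.52% of all 16521 and 4.60% of the CpG-rich ones. ETS had a match in 11 (15.9%, against 5.54% and 9.27%) and YY1 in 8 (11.6%, against 2.03% and 3.74%). Any of the 3 motifs was found in 25 promoters (36.2%, against 9.56% and 16.6%). The SP/KLF motif (GGGCGG) had a match in 49.3%, against 48.2% of all and 74.6% of CpG-rich promoters, and NF-Y (CCAAT) in 39.1%, against 38.8% and 37.5%. The TATA box was found in 5.80%, against 12.9% of all but 5.51% of CpG-rich promoters, and CRE in 2.90%, against 2.42% and 3.89%. In no promoter of the set did matches of different motifs overlap. A match is a run of letters, and no binding of a factor was measured.

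**Figure D5:**
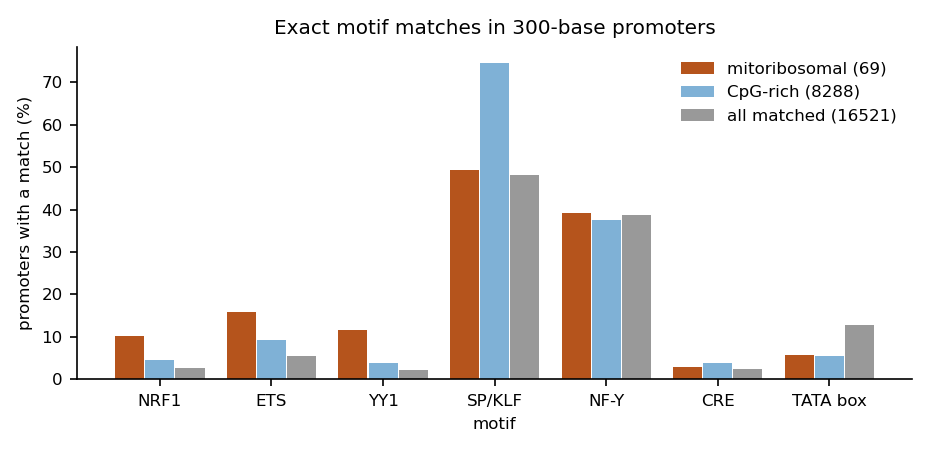
Share of promoters of 300 bases with an exact match on either strand (vertical axis, %) for each of 7 motifs (horizontal axis), in the 69 matched mitochondrial ribosomal protein genes (orange), 8288 CpG-rich promoters (blue) and all 16521 matched promoters (grey). NRF1, ETS and YY1 are more frequent in the orange bars, whereas the SP/KLF bar is at 49.3% against 74.6% for CpG-rich promoters.

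The genes with an NRF1 match were Mrpl17 (10 libraries), Mrpl32 (9), Mrpl39 and Mrps18b (8 each), Mrpl9 (6), and Mrpl10 and Mrpl22 (2 each). In Mrpl32, shown above, a pair of matches on opposite strands overlaps from position -87, counted from the start, and another begins at -23. In Mrpl17 the match begins at -11 and in Mrpl39 the first is at position -125. Of the 14 matched genes held in 8 or more libraries 4 had an NRF1 match, and of the other 55 genes 3 did. No test was made of this split, since its limit was set with the values known. YY1 matches were found in 0 of those 14 genes and in 8 of the 55. ETS matches were found in 1 and 10. By medians, genes of the set with a YY1 match were held in 4.5 libraries, against 4 without. For ETS the medians were 4 and 4, and for NRF1 8 and 4. Over all matched promoters they were 6 with and 2 without an NRF1 match, and 5 and 2 for both ETS and YY1. Mrps9 had none of the 3 motifs, and its CpG ratio of 0.537 put it among the few genes of the set outside the CpG-rich promoters. The 3 genes without any start peak, Mrps2, Mrpl21 and Mrpl16, had CpG ratios of 0.821, 0.733 and 0.665 and held none of the 3 motifs.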

How the data were processed

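ATAC-seq libraries were analysed as 16 deposited peak lists, 4 per group, with groups and replicate numbers taken from the sample titles. According to the study's methods, reads were cleared of adapters by the authors with Trimmomatic. They aligned read pairs to GRCm38 with BWA MEM 0.7.17, dropped ambiguous and blacklisted alignments and called peaks in each library with MACS2 2.2.7.1 from whole fragments. Whether cut sites were shifted for the transposase is not given in the sources used here. The authors deposited for each peak a score, a fold enrichment (ratio), a −log10 p-value and a −log10 q-value, none of them scaled between libraries, so that values of different libraries differ with depth.

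Peaks on 21 chromosomes (the autosomes, X and Y) were joined to GENCODE M21 starts with Python 3 and pandas. The whole-number summit pileup and its background were solved from the fold enrichment and the p-value, within a misfit of 0.0005, and the value near the low end of the backgrounds in a library (its first percentile) was taken as the background coverage. Presence was tested per gene with Fisher's exact test and, over both cell types, with an exact permutation test in SciPy, adjusted by Benjamini-Hochberg over 21938 genes. Scripts were tested on simulated data. Equally long lists hold the 2290 best peaks by −log10 q-value, the length of the shortest list. The alternatives were a 500 bp window, any overlap, the 5′ end only, a −log10 q-value of at least 5, equally long lists, each library left out, and a replicate block. Depth was judged from the background coverage alone, and no interval was computed.

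The members and lists were chosen with earlier results of these data known. Named were genes that separate groups, the 8 held in the most libraries, the 5 highest fold enrichments, genes held in no library and other mitochondrial translation genes called. Mrpl39 and Mrpl36 were added for their motifs, and Mrpl50 for its test over both cell types.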

Additional observations from a re-analysis of the deposited data

Results flagged for a closer look

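WT TM replicate 2 stood apart from its group in 1 measure. Among its 2290 best peaks 0% of the mitochondrial ribosomal protein genes had a start peak, while the other 3 WT TM libraries each had 2.56%, which is 2 genes. The gap made up the whole range of the group. Of 20 combinations of a group and a measure looked at this was the only one past the limit of Dixon's test, and chance alone passes about 1 in 20 groups.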

How the results depend on the processing

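The TM difference between genotypes, 20.8 points in the share of the set, was 7.37 with a −log10 q-value of at least 5 and 0.32 in equally long lists. The TPdh-/- TM minus TPdh-/- TE difference, 12.8 points, likewise fell to 0.64 in equally long lists, where TPdh-/- TE minus WT TE went from -4.81 to -10.3. Pooled over the 2 groups of these comparisons, the SDs over all peaks were 13.8 and 16.2 points. In equally long lists the SD fell from 14.3 to 2.84 points in WT TE and from 17.8 to 1.61 in TPdh-/- TE. Their mean shares fell as well, from 32.4 to 11.9% and from 27.6 to 1.60%, and WT TE and TPdh-/- TE no longer overlapped. Leaving out 1 library gave 15.2 to 26.7 points for TPdh-/- TM against WT TM, -11.3 to 2.24 for TPdh-/- TE against WT TE (positive without TPdh-/- TE replicate 2 alone), -19.3 to -7.16 for WT TM against WT TE, and 5.77 to 18.2 for TPdh-/- TM against TPdh-/- TE. Mrps9 separated TPdh-/- TM from WT TM in every run that left out 1 library, an outcome that 4 against 0 libraries fixes in advance. It did not with a −log10 q-value of at least 5 or in equally long lists. There 0 genes of the set did, beside 0.1% and 0.0182% of protein-coding genes. Without 1 library the genes that separated groups numbered 1 to 3 for TPdh-/- TM against WT TM (beside 0.647 to 1.49% of protein-coding genes), 0 to 1 for TPdh-/- TE against WT TE (0.419 to 0.884%), 0 to 3 for WT TM against WT TE (0.419 to 0.998%) and 0 to 2 for TPdh-/- TM against TPdh-/- TE (0.602 to 1.25%), and a 500 bp window gave 1 (Mrps16) for TPdh-/- TE against WT TE, beside 0.269%. Mrpl50, the 1 gene called over both cell types, was lost (0 genes) with a 500 bp window, a −log10 q-value of at least 5 and equally long lists. Of all protein-coding genes 0.479, 0.128 and 0.333% were called under these settings, in either direction. Leaving out 1 library gave 0 to 1 gene, beside 0.624 to 1.1% of protein-coding genes in either direction (0.816% with all libraries), and kept Mrpl50 in 3 of 16 runs (those without WT TE replicate 1, TPdh-/- TE replicate 2 or WT TM replicate 2), with Mrpl9 in place of Mrpl50 without WT TM replicate 4 or TPdh-/- TM replicate 2. The cause was not tested. Same-numbered libraries deviated together with correlations of -0.10 to 0.23, not all above 0.1, so the numbers were not read as pairs. With a replicate block, sign flips gave 0 genes in each comparison, where the smallest p possible is 0.125 with 4 pairs. Over both cell types, where it is 0.0078, they gave 0 genes of the set, beside 0.16% of protein-coding genes. No gene of the set had a start peak in all 8 libraries of a comparison, so tests of fold enrichment gave a value only without TPdh-/- TE replicate 2, where 0 of 1 gene (TPdh-/- TE against WT TE) and 1 of 2 genes (Mrpl47, TPdh-/- TM against TPdh-/- TE) did not overlap. Fragments were few, 3 to 22 at a summit, which limits any absence.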
